A study of Mus musculus with 2 samples.

Results

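Neuronal differentiation was read from 9 marker genes: the neurogenic factor Neurog2, the microtubule genes Tubb3, Dcx, Map2, Mapt and Stmn2, the neurofilament genes Nefl and Nefm, and the adhesion gene Ncam1. They were taken by gene symbol from a table of 16803 genes, which lists all 9. RNA came from the mouse line NE4C, which the labels describe as neural stem cells, grown on poly-L-lysine. The control was the normal culture, and the other culture was treated with homocysteine thiolactone (HTL), a cyclic thioester of homocysteine that reacts with lysines in proteins. The dose and time of the sequenced treatment are not given in the sources used here. There was a single library of each kind, which leaves every difference without a replicate check. Tests and intervals therefore compare these 2 libraries and cover counting error only.

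New neurons are born when proneural factors such as Neurog2 switch on a neuronal programme in dividing progenitors. The young neuron then builds an axon and dendrites on a scaffold of microtubules, which contain the class III beta tubulin made from Tubb3. Dcx, Map2 and Mapt encode doublecortin, MAP2 and tau, which bind and stabilise microtubules, whereas the stathmin made from Stmn2 binds free tubulin and promotes disassembly in growth cones. Nefl and Nefm encode the light and medium subunits of the neurofilaments that fill axons, and Ncam1 encodes a cell surface adhesion molecule that can carry polysialic acid.

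The control library held 10350665 reads and the HTL treatment library 9102076. A gene at 0 reads could have had up to 3, equal to 0.29 CPM (reads scaled to library size) for the control and 0.33 CPM for HTL treatment. The labelled cell type was checked against markers. The progenitor genes Nes, Msi1, Sox2 and Vim were expressed in the control library at 25.1, 38.7, 34.7 and 78.5 FPKM (fragments scaled to transcript length and library size). The progenitor genes Fabp7, with 2 reads in each library, and Hes5, with 1 read in control cells and 0 after HTL treatment, were nearly absent. The pluripotency factor Pou5f1 stood at 1870 FPKM in control cells and 2114 after HTL treatment, at rank 32 and rank 40 of all listed genes. Nanog, also a pluripotency factor, stood at 23.77 FPKM in control cells and 14.75 after HTL treatment.

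In genome build NCBIM37, the counterpart of the mm9 build named in the submitters' processing notes, Tubb3 lies on chromosome 8 from 125935324 to 125945915 (plus strand). Dcx lies on chromosome X from 140290385 to 140367854 (minus strand) and Stmn2 on chromosome 3 from 8509527 to 8561604 (plus strand). Map2, listed there as Mtap2, lies on chromosome 1 from 66221847 to 66489157 (plus strand), and Mapt on chromosome 11 from 104092704 to 104193404 (plus strand). Ncam1 lies on chromosome 9 from 49310257 to 49607027 (minus strand) and Neurog2 on chromosome 3 from 127336054 to 127338549 (plus strand). Nefl (68701920 to 68707152, plus strand) and Nefm (68700647 to 68742903, minus strand) lie on chromosome 14, and their annotated exons overlap on opposite strands. Exons of Map2 and Ncam1 overlap Gm10558 and Gm11149 on the opposite strand. No source states a strand setting for the counting. The estimated reads of Nefl, Nefm and Map2 were whole numbers in both libraries, which shows no read split between genes, and the origin of a read within an overlap was not tested.

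Promoter windows from RefSeq (build GRCm38.p6), covering 250 bases before an annotated transcription start, were at hand for 4 of the 9 genes. Those of the 3 microtubule genes among them are shown, 5′ to 3′ on the strand of the gene, because they include the members with the smallest adjusted p in each direction, Tubb3 and Dcx. Capitals mark the letters TATAA, as in a TATA box, and GGGCGG, as in a GC box, on either strand. The motifs were chosen after the windows had been seen. The Tubb3 window is chr8:123411303-123411552, the Map2 window chr1:66175079-66175328 and the Dcx window chrX:143933220-143933469, the first of 2 listed starts.
Tubb3: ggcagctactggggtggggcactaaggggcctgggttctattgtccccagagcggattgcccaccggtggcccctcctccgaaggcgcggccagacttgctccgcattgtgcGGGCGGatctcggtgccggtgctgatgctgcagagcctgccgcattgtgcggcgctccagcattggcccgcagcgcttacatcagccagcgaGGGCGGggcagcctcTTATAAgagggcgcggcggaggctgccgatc
Map2: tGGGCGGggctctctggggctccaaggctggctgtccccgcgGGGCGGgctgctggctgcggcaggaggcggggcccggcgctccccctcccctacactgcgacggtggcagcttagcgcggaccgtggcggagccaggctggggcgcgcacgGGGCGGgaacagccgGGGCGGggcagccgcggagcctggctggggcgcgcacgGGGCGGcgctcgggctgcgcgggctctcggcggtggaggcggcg
Dcx: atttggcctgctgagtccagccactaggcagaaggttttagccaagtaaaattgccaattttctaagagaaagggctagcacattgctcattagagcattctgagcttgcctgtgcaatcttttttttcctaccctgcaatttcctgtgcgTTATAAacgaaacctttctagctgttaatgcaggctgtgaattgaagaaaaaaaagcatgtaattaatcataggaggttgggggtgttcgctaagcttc
The Tubb3 window held TATAA 30 bases before the start, where it overlaps its own reverse complement, and 2 copies of GGGCGG. The Map2 window held 5 copies of GGGCGG and no TATAA, whereas the Dcx window held TATAA 98 bases before the start and no GGGCGG. G and C made up 68%, 81.2% and 41.6% of the bases of these windows, against a median of 52.4% over 32851 windows of this length. TATAA was present in 22.8% of all windows and GGGCGG in 32.7%. The E-box letters CANNTG, the general form of the sites that factors of the Neurog2 family bind, were present in 66.2% of all windows but in none of the windows of Tubb3, Map2, Dcx and Neurog2.

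The levels of the 9 genes spanned a wide range. In the control library Tubb3 stood at 16.3 FPKM (95% exact Poisson interval 14.5 to 18.3) and Stmn2 at 15.7 (14 to 17.6). These were the only members well above the median of 4.0 FPKM over all listed genes, and their own intervals overlapped. Ncam1 followed at 4.20 FPKM (3.72 to 4.72) and Nefl at 3.22 (2.50 to 4.09), also with overlapping intervals. Nefm at 1.95 FPKM (1.51 to 2.48) and Map2 at 1.88 (1.55 to 2.26) could not be separated from each other. Dcx at 0.93 FPKM (0.746 to 1.15) and Mapt at 0.71 (0.502 to 0.975) could not be separated either. Neurog2 was at 0 reads.

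In the HTL treatment library Tubb3 stood at 24.8 FPKM (22.4 to 27.4) and Stmn2 at 23.3 (21.0 to 25.6), again with overlapping intervals. Nefl was at 4.25 FPKM (3.36 to 5.30), Ncam1 at 3.26 (2.81 to 3.76) and Nefm at 3.22 (2.61 to 3.93), and each interval overlapped the next. Map2 was at 1.28 FPKM (0.990 to 1.63), above Mapt at 0.41 (0.243 to 0.648) and Dcx at 0.34 (0.228 to 0.488). The intervals of Mapt and Dcx overlapped. Relative to the FPKM of Tubb3, Dcx stood at 0.0569 times in the control and 0.0137 times after HTL treatment, and Mapt, not separable from Dcx in either library, at 0.0435 and 0.0165 times.

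**Figure D1:**
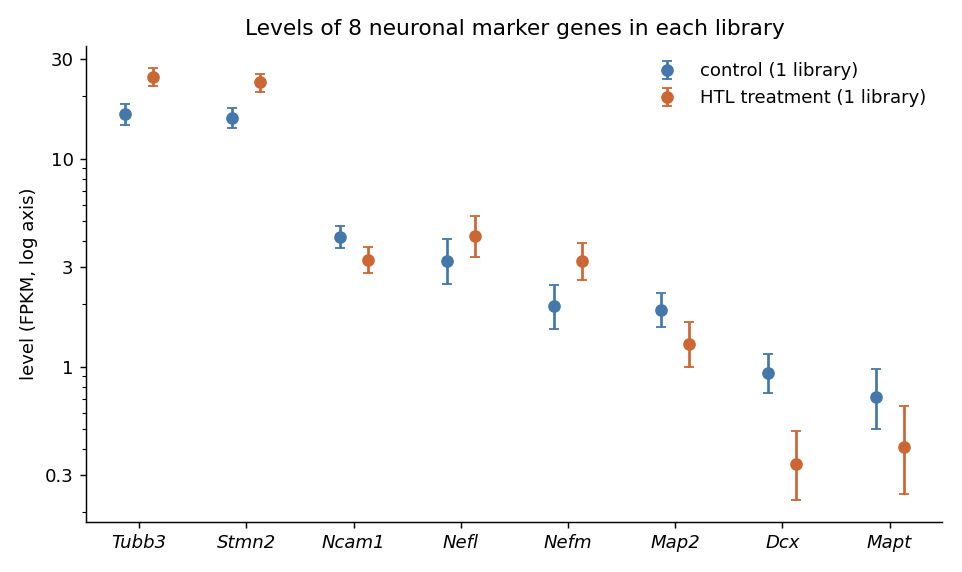
Level of 8 marker genes in the control library (blue) and the HTL treatment library (orange), in FPKM on a log axis, with 95% exact Poisson intervals of the reads and 1 library for each condition. Tubb3, Stmn2, Nefl and Nefm are higher in the HTL treatment library, while Ncam1, Map2, Dcx and Mapt are lower; Neurog2, with 0 and 1 reads, is not drawn.

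The comparison of reads between the libraries asked which markers differed after HTL. A gene was called when the two-sided exact binomial test on its reads, scaled to the column totals, gave a Benjamini-Hochberg adjusted p no greater than 0.001 and the log2 ratio (HTL treatment over control) was at least 1 in size. Of the 9 members, 8 had at least 10 reads over both libraries and were tested. A single member, Dcx, was called, and it was lower; no member was called higher. Among all 13442 genes tested, 10.8% were called, 7.98% as lower and 2.81% as higher, so 1 of 8 is close to the background. The members divided evenly, 4 with a log2 ratio above 0 and 4 below, and their median was 0.0093 against -0.14 for all genes tested.

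Dcx, the marker of migrating young neurons, had 88 control reads and 29 after HTL treatment. It fell by 1.40 on the log2 scale (95% exact Clopper-Pearson interval -2.07 to -0.80), to 0.379 times the control level, with an adjusted p of 5.51e-06 in the exact binomial test. Doublecortin RNA was therefore lower in the HTL treatment library beyond counting error, though on few reads. In a bulk library, fewer cells that express it and less RNA per cell cannot be told apart. If cultures are assumed to vary by a coefficient of 0.2, the adjusted p from the exact test of edgeR was 0.0925, and the call was lost. The 2 genes nearest to Dcx in control level and log2 ratio, measured over these 2 libraries, were Ccdc138 (88 and 29 reads) and Smpdl3b (92 and 30 reads).

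Map2, which marks dendrites, had 114 control reads and 66 after HTL treatment, for a log2 ratio of -0.60 (-1.06 to -0.15). Its adjusted p in the exact binomial test was 0.0144. Mapt, which encodes axonal tau, had 38 and 18 reads, for a log2 ratio of -0.88 (-1.79 to -0.048) and an adjusted p of 0.0556 in the exact binomial test. Both values lay on the side of Dcx, but neither passed the test, and the interval of Mapt reached from nearly no difference to beyond the value of Dcx.

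Tubb3, the usual marker of newborn neurons, had 296 control reads and 396 after HTL treatment. Its log2 ratio was 0.60 (0.38 to 0.83), 1.52 times the control level, with an adjusted p of 1.91e-07 in the exact binomial test. Stmn2 had 309 and 403 reads, for a log2 ratio of 0.57 (0.35 to 0.79) and an adjusted p of 6.55e-07 in the exact binomial test. The 2 most abundant members were thus higher in the HTL treatment library by nearly the same factor, and their FPKM ratio (Stmn2 over Tubb3) was 0.961 in the control and 0.938 after HTL treatment. Neither reached the log2 ratio of 1. With the adjusted p cutoff of 0.001 alone and any fold, 2 members were higher and 1 was lower, where 14.5% of all genes tested were higher and 24.1% lower by that rule. If cultures are assumed to vary by a coefficient of 0.1, the adjusted p from the exact test of edgeR was 0.0394 for Tubb3 and 0.0545 for Stmn2, both above 0.001.

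Of the neurofilament genes, Nefm had 66 control reads and 96 after HTL treatment, for a log2 ratio of 0.72 (0.26 to 1.20). Its adjusted p in the exact binomial test was 0.0037, and between 5.05e-04 and 9.43e-04 when the libraries were scaled by TMM, median of ratios or upper quartile. Nefl had 67 and 78 reads, for a log2 ratio of 0.40 (-0.085 to 0.90) and an adjusted p of 0.148 in the exact binomial test. Only Nefm had an interval above 0, and the intervals of these neighbouring genes overlapped widely. The third neurofilament subunit, Nefh, which is no member, had 420 and 271 reads, a log2 ratio at -0.45 (-0.67 to -0.22) and an adjusted p of 2.05e-04 in the exact binomial test. Per length, Nefh was the most abundant of Nefl, Nefm and Nefh in both libraries, at 3.12 times the FPKM of Nefl in the control library and 1.73 times in the HTL treatment library.

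Ncam1 had 282 control reads and 190 after HTL treatment, for a log2 ratio of -0.38 (-0.66 to -0.11). Its adjusted p in the exact binomial test was 0.0102, so it did not pass. Neurog2 had 0 reads in the control library and 1 read in the HTL treatment library. Both counts lie under the limit that a count of 0 allows, so a difference in this proneural factor was not detectable at this depth.

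**Figure D2:**
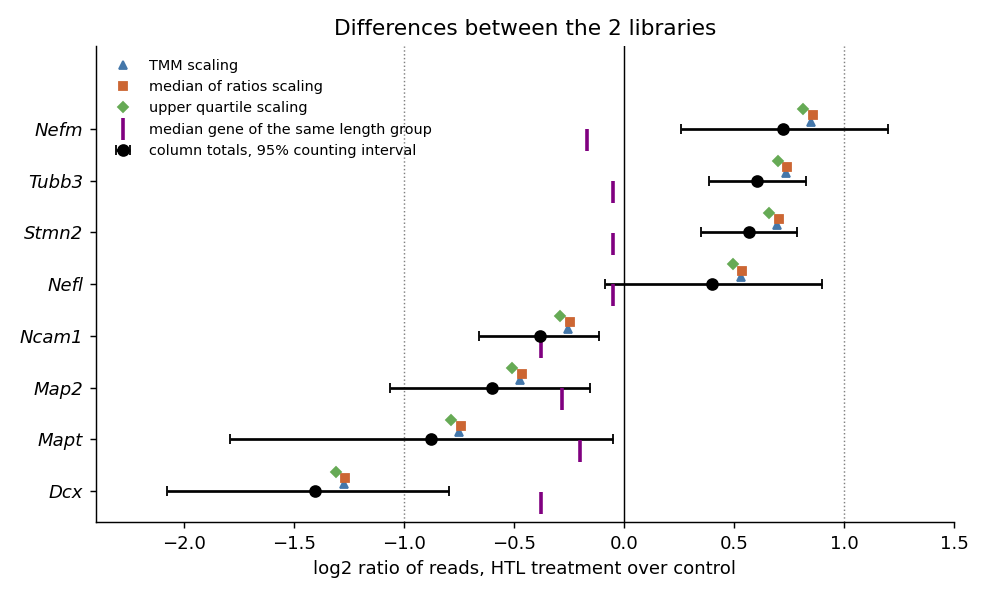
Log2 ratio of reads (HTL treatment over control) for the 8 genes tested, scaled to column totals (black, with 95% exact Clopper-Pearson intervals) and under 3 other scalings (colours; TMM, upper quartile and median of ratios). Dotted lines mark a log2 ratio of 1 in either direction, and purple ticks give the median gene of similar transcript length; Dcx lies beyond the dotted line under each scaling, and no sign changes with the scaling.

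The members divided by transcript length as they did by direction. The 4 with a log2 ratio above 0 had transcripts of at most 3244 bases (Tubb3, Stmn2, Nefl and Nefm), and the 4 below 0 had transcripts of at least 4728 bases (Mapt, Map2, Ncam1 and Dcx). Over all genes tested, the median log2 ratio moved the same way with length, from 0.14 in the shortest of 10 length groups to -0.38 in the longest. In the longest group, which holds Dcx and Ncam1, 15.2% of genes were called lower and 1.26% higher. The part of length in the members' differences was not tested beyond this comparison and the one with the length group medians that follows.

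Set against the median of its own length group, Ncam1 was at -0.0059, level with genes of similar length. Map2 was at -0.32 (adjusted p = 0.223, exact binomial test) and Mapt at -0.67 (0.164). Dcx remained lower, at -1.02, with an adjusted p of 0.00122 in the exact binomial test, just short of the call. The members with shorter transcripts kept their excess on this scale, 0.65 for Tubb3, 0.62 for Stmn2, 0.89 for Nefm and 0.45 for Nefl. Here the adjusted p of Nefm was 2.80e-04 in the exact binomial test, and that of Nefl was 0.110.

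**Figure D3:**
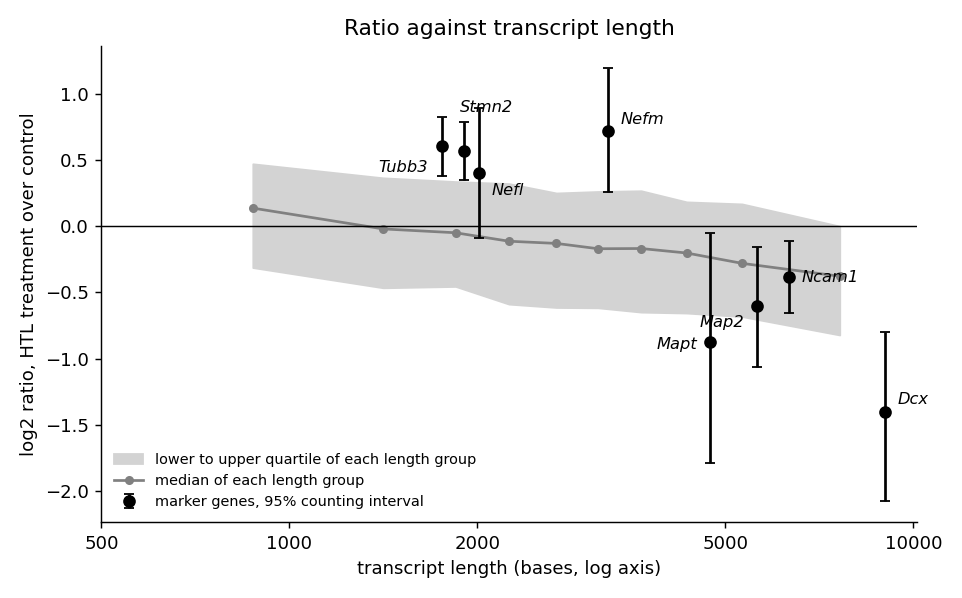
Log2 ratio of reads (HTL treatment over control) against transcript length in bases on a log axis, for the marker genes (black, with 95% exact Clopper-Pearson intervals) and for all 13442 genes tested in 10 groups of equal size (grey line, median; grey band, lower to upper quartile). The median falls from 0.14 in the shortest group to -0.38 in the longest, and the marker genes drawn, except Map2 and Ncam1, lie outside the band.

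Tubb3 belongs to a family of beta tubulins with closely related proteins. RSEM, which estimated the reads, gave fractional values to 3 members, Tubb3, Dcx and Ncam1, as it does for reads that match several transcripts. In the annotated coding transcripts no stretch of 50 bases in Tubb3 recurred in another gene, whereas 22 of 9341 in Dcx and 7 of 10111 in Ncam1 did. Tubb3 was a minor isotype: it made up 1.55% of the summed beta tubulin FPKM in control cells and 3.58% after HTL treatment. Tubb5, found in dividing cells, made up 61.7% and 58.6%.

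The beta tubulin genes moved in both directions. Tubb6 (805 and 1084 reads) had a log2 ratio of 0.61 and an adjusted p of 3.28e-19 in the exact binomial test, and Tubb2a (70 and 83 reads) had a log2 ratio of 0.43 that did not pass. Lower in the HTL treatment library were Tubb4b at -0.89, Tubb4a at -0.78, Tubb5 at -0.68 and Tubb2b at -0.52, each passing 0.001 after adjustment in the exact binomial test and none reaching a log2 ratio of 1. Because of these, the 7 beta tubulin genes summed had a log2 ratio of -0.62, opposite in sign to Tubb3 alone. Of the alpha and gamma tubulins, Tuba4a and Tuba1a had log2 ratios of 0.37 and 0.22, Tuba1b one of -0.51, Tubg1 one of -0.16 and Tuba1c one of -0.0061. Under the other scalings the sign of Tuba1c turned above 0, along with none of the other tubulins named.

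**Figure D4:**
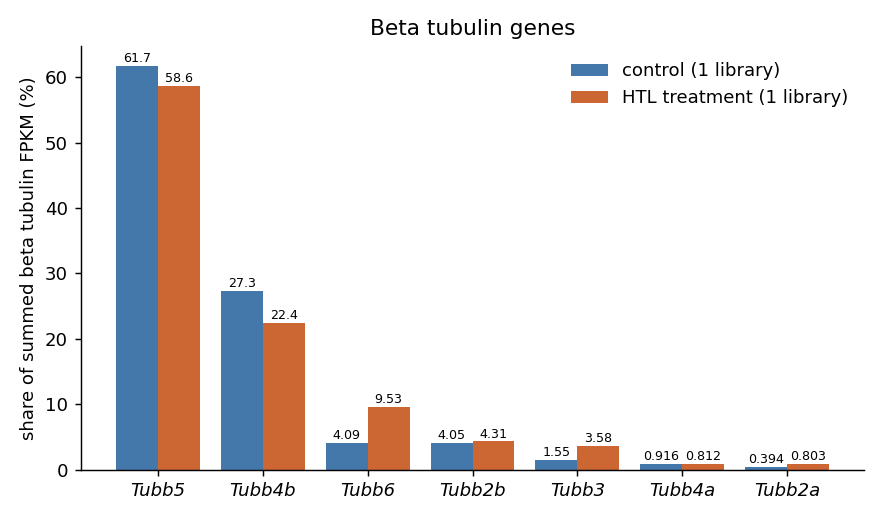
Share of each beta tubulin gene in the summed FPKM of the 7 beta tubulin genes, in percent, in the control library (blue) and the HTL treatment library (orange), with 1 library for each condition. Tubb3 makes up 1.55% in control cells and 3.58% after HTL treatment, and Tubb5 more than any other gene in both.

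Other neuronal, cytoskeletal and regulatory genes, not all of them particular to neurons, were then compared in 8 lists, which hold 109 genes tested. In these lists 11 genes were called lower and 0 higher, by the exact binomial test and the log2 cutoff. The share called lower was 10.1%, beside 7.98% of all genes tested, and the share called higher was 0% beside 2.81%. Of the 11, 8 were called under all 4 scalings, and no gene was called higher under any of them. Whether called or not, 37 of the 109 had a log2 ratio above 0 (33.9%, beside 41.3% of all genes tested).

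The neuronal transcription factors had the lowest median, -0.90 over 9 genes tested of 17 in the table, and 2 were called lower. Relative to genes of similar length the median was -0.53. Eomes, a factor of intermediate neuronal progenitors, had 413 control reads and 92 after HTL treatment, for a log2 ratio of -1.98 (-2.32 to -1.65). Sox4, which acts early in neuronal differentiation, had 1267 and 442 reads, with its log2 ratio at -1.33 (-1.49 to -1.18). Neurod1, a factor that acts after Neurog2 in newborn neurons, had 7 and 1 reads and was not tested. Of the 17 listed in the table, 8 had too few reads to test.

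Among 20 other microtubule-binding proteins, 1 was called, with a median of -0.084 that turned above 0 under the other scalings and, at 0.14, relative to genes of similar length. It was Dclk1, which encodes a doublecortin-like kinase, with 292 and 81 reads and its log2 ratio at -1.66 (-2.04 to -1.30). Set against its own length group, Dclk1 was at -1.28. Of the 6 other intermediate filament genes tested, Vim, the vimentin of progenitors, was called, at a log2 ratio of -1.01 (-1.15 to -0.88). It fell short of the cutoff under the other 3 scalings.

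The kinase and phosphatase genes that act on tau and MAP2 had a median of 0.029 over 15 genes tested, with 2 called lower. Both encode activators of the neuronal kinase Cdk5. Cdk5r1 had 37 and 5 reads, for a log2 ratio of -2.59 (-4.41 to -1.35), and Cdk5r2 had 308 and 77 reads, for a log2 ratio of -1.81 (-2.19 to -1.45). The kinase gene Cdk5 itself had 205 and 230 reads, with its log2 ratio at 0.35 (0.074 to 0.63), short of the call.

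Of 11 neural adhesion and polysialylation genes tested, St8sia2 was called, with 43 and 9 reads and its log2 ratio at -2.02 (-3.29 to -1.01). It encodes a sialyltransferase that adds polysialic acid to the protein made from Ncam1. The median of this list was 0.0010. The growth cone, synapse and neuronal RNA-binding genes had a median of -0.44 over 22 genes tested (-0.22 relative to genes of similar length), with 4 called lower. The largest of these falls was that of Eno2, the neuronal enolase, at -1.53 (-2.15 to -0.96), followed by Vamp2 at -1.32. Elavl2 and Celf4, both close to the cutoff, were called only with the column totals. Uchl1 was on the other side, at 0.86 (0.58 to 1.15), short of a log2 ratio of 1.

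The REST complex represses neuronal genes in cells that are not neurons. None of its 15 genes tested was called, and their median was -0.34. With the adjusted p cutoff of 0.001 alone in the exact binomial test and any fold, 6 were lower and 2 higher. By that rule 24.1% of all genes tested were lower and 14.5% higher. Rest itself had 1215 and 1104 reads, with its log2 ratio at 0.047 (-0.072 to 0.17).

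**Figure D5:**
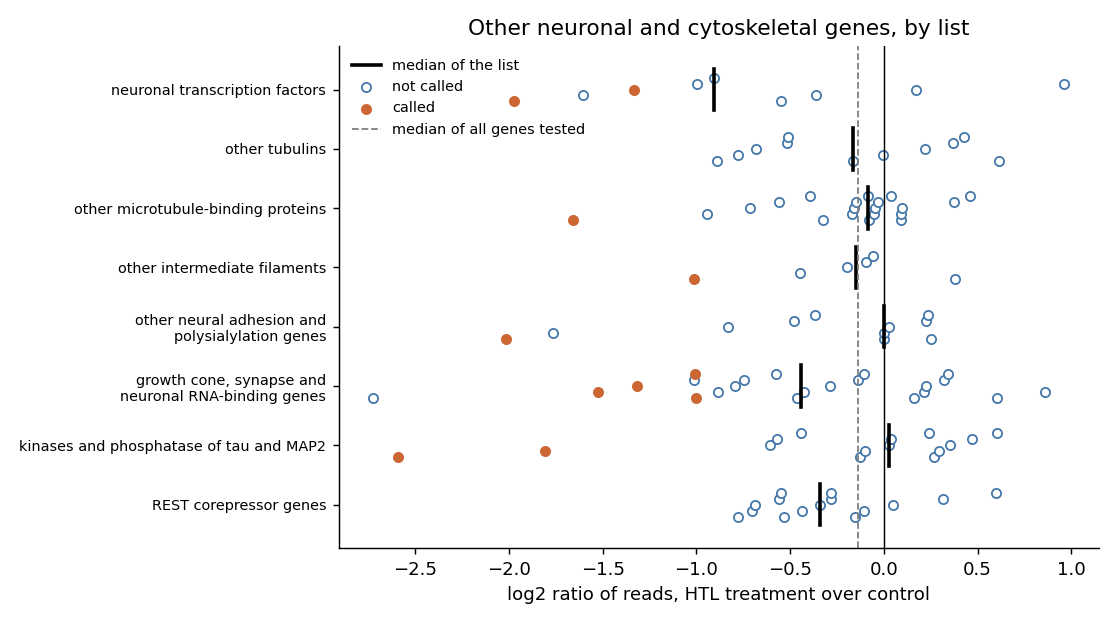
Log2 ratio of reads (HTL treatment over control) of 109 genes in 8 lists, 1 point per gene tested, with the list median as a black bar and the median of all genes tested as a dashed line. Filled points are called genes, which number 11 and all lie below 0.

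Markers of other cells the culture could hold differed in both directions, and their part in the differences above was not tested. The summed FPKM of 10 neural progenitor markers was 208 in control cells and 151 after HTL treatment, with Sox1 lower by the call at -1.78 (48 and 12 reads), Sox2 at -1.46 and Vim at -1.01. Of the other 5 tested, Prom1 was at 0.51 (0.33 to 0.69), and Pax6, Msi1, Nes and Hes1 lay between -0.11 and 0.12. The median of the 8 tested was -0.084, and it was above 0 under the other 3 scalings. The summed FPKM of 4 epithelial markers was 40.3 and 85.5, with Cdh1, the epithelial cadherin, higher at 1.59 (1.38 to 1.81) and Krt8 higher at 2.36 on 4 and 20 reads. Epcam had a log2 ratio of 0.97, just under the cutoff, which it passed under the other scalings. The summed FPKM of pluripotency markers was 1895 and 2131, nearly all from Pou5f1, whose log2 ratio was 0.21. Nanog, another pluripotency factor, was on the other side at -0.68 (-0.89 to -0.46) on 500 and 275 reads. Esrrb, at 1.12 (0.45 to 1.85) on 28 and 54 reads, was called under the other 3 scalings but not with the column totals. Astrocyte, oligodendrocyte lineage and mesenchymal markers stayed between 2.68 and 20.1 FPKM in sum in either library. Of these, Aldh1l1 was called higher on 21 and 56 reads, while Slc1a3, which held most of the astrocyte sum, was at 0.0008. Pdgfrb was called lower on 112 and 46 reads, with the column totals only. Of the other mesenchymal markers tested, Col1a1 and Col1a2 were each at 1.21 on 12 and 25 reads and Dcn at -0.11, none passing. Gfap and Sox10 had at most 2 reads.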

How the data were processed

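Total RNA from 1 control and 1 HTL treatment culture of NE4C cells was sequenced. The labels name a TruSeq kit for library preparation and BGISEQ protocols for sequencing. The authors deposited estimated counts from RSEM, which are not normalized, FPKM values scaled to transcript length and library size (lowest value 0.01), and transcript lengths. The mapper, annotation, versions and strand setting are not given in the sources used here. The deposited log2 ratio, p-value and FDR columns hold the authors' own comparison and were not used.

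Estimated counts were rounded to whole reads. Genes with at least 10 reads over both libraries (13442; 3361 were left out) were tested across all genes with the two-sided exact conditional binomial test against the library totals, with Benjamini-Hochberg adjustment, at the cutoffs of the study's methods (adjusted p 0.001, absolute log2 ratio 1). Log2 ratios used 0.5 read added per library. No molecular identifiers are mentioned, so reads may repeat a molecule and intervals and floors cover counting error only. Without replicates, quasi-likelihood and DESeq2 fits could not be made, and edgeR and DESeq2 served for scaling (edgeR 4.0.16, DESeq2 1.42.0, R 4.3.3; Python 3.11.15 with scipy 1.17.1).

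The members and lists were chosen with earlier results of these data known. Named were all members, the largest called rise and fall in each list, tubulins with over 50 reads and the 2 genes nearest to each called member; other genes named were chosen after their values had been seen. The alternatives were 3 other scalings, other read minimums, 5 reads added, FPKM + 1, other cutoffs, an assumed coefficient of variation of 0.1, 0.2 or 0.4 in edgeR's exact test, the median of genes of similar length (10 groups) as reference, and summed beta tubulins. The test was run on simulated counts that held counting error only, with large changes in genes with many reads. That run could not check spread between cultures or ratios as small as those of the members.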

Additional observations from a re-analysis of the deposited data

How the results depend on the processing

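No paired analysis was possible because only 1 control and 1 HTL treatment library were compared, and leaving either out would end the comparison. The count of 1450 genes called became 816 with the ratio of FPKM + 1, 120 and 6 with an assumed coefficient of variation of 0.2 and 0.4, and 5195 without the log2 cutoff, since that rule admits smaller ratios. The count of 1 member called became 0 under the first 3 of these settings and 3 without the log2 cutoff. The log2 ratio of Dcx lost the call as -0.53 with the ratio of FPKM + 1, which shrinks ratios of genes at low FPKM. It also lost the call at -1.40 with a coefficient of variation of 0.2 or 0.4 (adjusted p = 0.0925 and 1.0, exact test of edgeR) and at -1.02 relative to its length group (adjusted p = 0.00122, exact binomial test). It kept the call under the other 7 alternatives run for it. The log2 ratio of Tubb3 reversed to -0.62 when summed with the other beta tubulin genes, because those hold most of the reads. Every other log2 ratio of a tested member kept its sign under each alternative run for it. Each also kept its side of the call, except for the calls gained without the log2 cutoff. Mapt could not be fitted at a mean of at least 50 reads. The other scalings raised log2 ratios by 0.093 to 0.14 and moved the calls from 378 higher and 1072 lower to 552 and 800 (TMM), 559 and 788 (median of ratios) or 498 and 860 (upper quartile).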
